A study of Mus musculus with 4 samples.

Results

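miR-221 and miR-222 are a pair of X-linked miRNAs that share one seed, and both gave less signal in B104 cells after knockdown of RBM3, a cold-inducible RNA-binding protein. They lost signal to unequal degrees: before scaling, miR-221 was 4.0-fold lower and miR-222 2.08-fold lower than in control cells. Over the 130 mouse miRNAs detected on every array the median fall was 4.60-fold. The sign of the change of each member depended on the scaling. The members are the 2 array names mmu-miR-221 and mmu-miR-222, taken by name from 567 mouse miRNA names on the array (577 with viral names). Both were detected on every array, as were 130 mouse miRNAs in all. The pair was chosen by name, but with its signals in knockdown and control cells already known, so these signals count as the values that chose it. Its signals, differences and ranks in that contrast are therefore a description, and no p-value is given for them.

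B104 is a clonal neuroblastoma line. The labels name mouse as its organism, while the reference cited for it in the paper concerns rat lines, and the array holds mouse miRNA sequences. Control cells were mock transfected and received no siRNA, and knockdown cells (siRBM3) received a single siRNA duplex against RBM3 at 20 nM. Both were harvested after 48 h, and each group has 2 arrays, numbered 1 and 2. The paper describes the profiling experiments as done in triplicate, without saying which of them gave these arrays, and the labels do not say whether the replicates came from separate cultures. The spread between them may therefore be technical. RBM3 itself cannot be checked on an array of mature miRNAs.

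Mature miRNAs are cut from hairpins in a primary transcript, first by Drosha in the nucleus and then by Dicer in the cytoplasm. Mir221 and Mir222 lie in one cluster and are made from a common primary transcript. In human cancer cells the pair is best known for repressing the Cdk inhibitors p27 and p57, and in human erythroid and endothelial cells for repressing the receptor KIT. In rat PC12 cells, a neuronal model, nerve growth factor induces both.

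Because the array reads the mature strand, the mature sequences show what the members share and where their probes can tell them apart. They are printed 5′ to 3′ as given by RefSeq on GRCm38.p6, with the seed (bases 2 to 8) in capitals. The older array names carry no arm and were read here as the 3p strands, as was usual in that naming, and the files give no probe sequence.
miR-221-3p: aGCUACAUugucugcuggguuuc
miR-222-3p: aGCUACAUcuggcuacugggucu
miR-1928: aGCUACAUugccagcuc
The seed GCUACAU was carried by 3 of the 1738 mature mouse miRNAs in the table, namely these, and miR-1928 was not among the array names. Aligned from base 1 without gaps, miR-221-3p and miR-222-3p were identical at bases 1 to 8 and at 11 of 23 positions overall. A further run of 6 bases, CUGGGU, was shared but shifted, starting at base 15 of miR-221-3p and at base 16 of miR-222-3p. The shared bases mean that the probes of one member may capture some of the other, which was not tested.

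The hairpins show the arrangement of the cluster, with the mature 3p strand in capitals.
Mir221: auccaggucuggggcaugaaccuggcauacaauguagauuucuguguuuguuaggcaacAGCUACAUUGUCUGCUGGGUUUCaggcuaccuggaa
Mir222: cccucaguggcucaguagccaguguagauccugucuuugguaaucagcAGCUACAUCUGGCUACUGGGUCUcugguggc
Mir221 lies at chrX:19146294-19146388 and Mir222 at chrX:19146893-19146971, both on the minus strand of GRCm38.p6, with 504 bases between them. The mature strand takes bases 60 to 82 of the 95-base Mir221 hairpin and bases 49 to 71 of the 79-base Mir222 hairpin. In both it lies on the 3′ arm. The deposited files hold no coordinates, and the array design was annotated on an earlier build.

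Some properties of the arrays bear on every value. Control arrays had 178 and 191 names flagged as detected, knockdown arrays 148 and 164. Over the 130 miRNAs seen on every array, the median signal went from 375 and 421 to 94.2 and 92.4. The 6 positive control probes detected on every array were dimmer on the knockdown arrays too, by 1.48-fold to 3.07-fold. The share of each fall that comes from a dimmer array cannot be told apart from a fall in the cells, and fewer cells cannot be told apart from less RNA per cell. Of 8 neural miRNAs fixed as markers and named on the array, miR-9, miR-9* and miR-128 were detected on every array. The other 5, miR-124 among them, were detected on none. Summed signals of the 8 were 851 to 956 in control and 163 to 165 in knockdown cells. All 4 listed muscle miRNAs named on the array were detected, with sums of 10192 to 12735 and 4441 to 4591. Listed miRNAs of blood cells, liver and endothelium were detected on no array. Of 6 listed early embryo miRNAs named on the array, 4 were detected on no array and none on every array. Their sums were 31.4 to 38.7 in control and 70.6 to 80.9 in knockdown cells. The part of other cell types in the results was not tested.

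miR-221 gave a total signal, the sum over its probes in intensity units, of 600 and 671 in control replicates 1 and 2 and of 165 and 153 in knockdown replicates 1 and 2. Both knockdown values lay far below both control values. The means were 635 ± 50.5 (SD, n = 2) for control and 159 ± 7.94 (SD, n = 2) for knockdown, and the fold between same-numbered arrays was 3.64 and 4.38. Feature Extraction's own error on these signals was 7.22% to 7.92%, which covers the reading of each array and not the spread between samples.

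miR-222 gave 121 and 125 in control replicates 1 and 2 and 61.7 and 56.8 in the knockdown replicates. These groups did not overlap either, but the gap was narrower. The means were 123 ± 3.18 (SD, n = 2) and 59.2 ± 3.49 (SD, n = 2), and the fold between same-numbered arrays was 1.96 and 2.21. The error given by Feature Extraction was 8.73% to 11.7%, the higher values being on the knockdown arrays. Knockdown signals lay below control signals without overlap for 114 of the 130 miRNAs, or 87.7%, so this is common to most miRNAs on these arrays. The fall of miR-222 lay within the range of the positive control probes, and that of miR-221 lay beyond their largest fall.

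**Figure D1:**
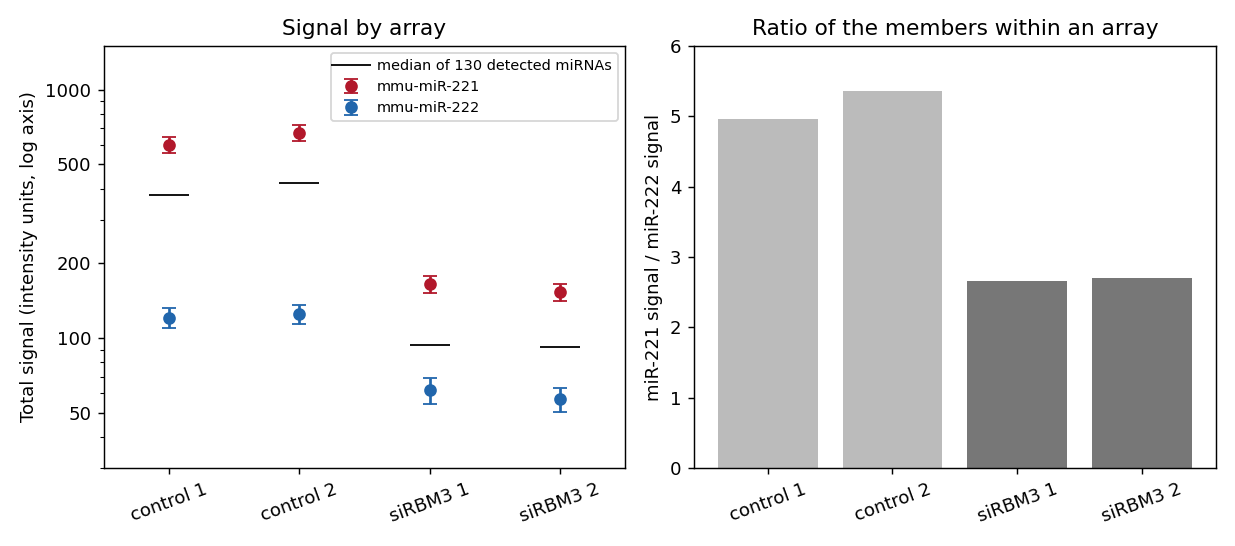
The left panel plots total signal (intensity units, log axis) of miR-221 and miR-222 on each array, with bars for Feature Extraction's error and a black line for the median of the 130 miRNAs detected on every array; the right panel plots the miR-221 signal divided by the miR-222 signal on each array. miR-221 keeps its place above the array median, miR-222 moves closer to it from below, and the ratio falls from 4.97 and 5.36 to 2.67 and 2.70.

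Each member was read by 2 probes with 10 spots each per array, and the probes of a member gave similar falls. For miR-221, probe A_54_P2640 had a mean processed signal per spot of 392 ± 30.3 (SD, n = 2 arrays) for control and 103.0 ± 5.48 for knockdown, a 3.80-fold fall. Probe A_54_P3830 went from 535 ± 40.4 to 137 ± 7.98, a 3.89-fold fall. For both probes even the dimmest control spot, at 348 and 463, was well above the brightest knockdown spot, at 118 and 162.

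For miR-222, probe A_54_P2643 went from 74.4 ± 0.683 (SD, n = 2 arrays) to 35.4 ± 3.55 and probe A_54_P2644 from 106 ± 3.71 to 53.8 ± 1.71. The falls were 2.10-fold and 1.97-fold, so both probes of miR-222 fell less than either probe of miR-221. Single spots of A_54_P2643 touched, with a lowest control spot of 56.6 and a highest knockdown spot of 57.3, while those of A_54_P2644 did not (80.6 and 69.7). Spots varied more for the dimmer member: the coefficient of variation over the 10 spots ranged from 3.40% to 7.90% for miR-221 and from 9.20% to 21.8% for miR-222. All 80 spots of miR-221 and 79 of the 80 of miR-222 were flagged as well above background, the exception being on knockdown array 1. Spots of one array share its RNA and are not replicates of the condition.

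**Figure D2:**
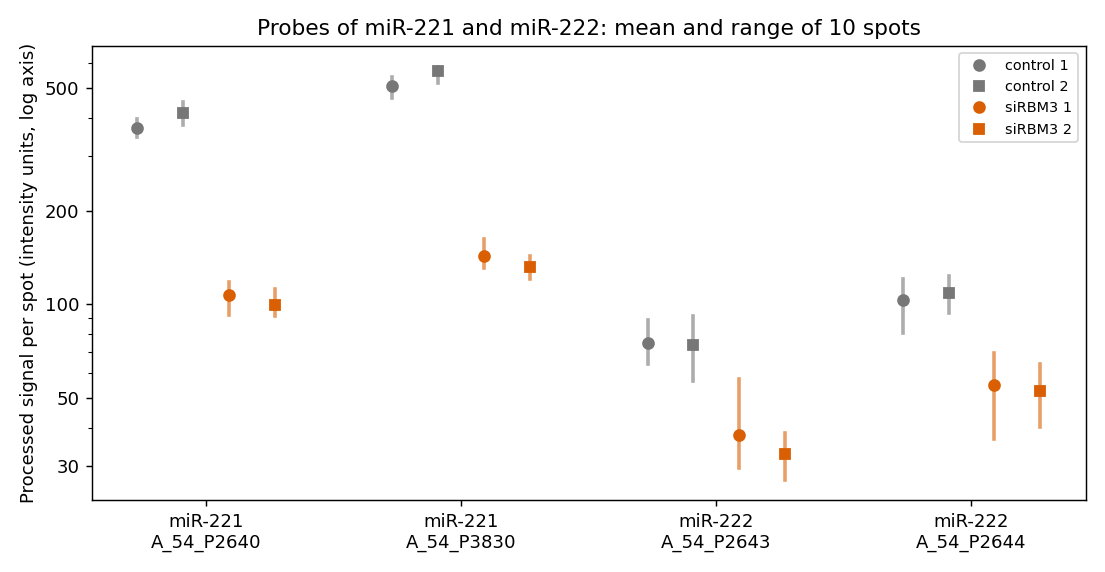
Processed signal per spot (intensity units, log axis) for the 2 probes of each member on the 4 arrays, with points for the mean and lines from the lowest to the highest of 10 spots. Control and knockdown spots are far apart for both miR-221 probes and close or touching for the miR-222 probes.

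The ratio of the members within an array does not depend on a factor common to all spots of that array. It was 4.97 and 5.36 in control replicates 1 and 2, against 2.67 and 2.70 after knockdown, with group means of 5.16 ± 0.277 (SD, n = 2) and 2.68 ± 0.0239 (SD, n = 2). The ratio compares the brightness of different probes and says nothing of the relative amounts of the members. Its shift shows that their signals changed unequally, by 0.94 on the log2 scale or 1.92-fold. A factor that differs between probes would remain in the ratio. The 6 positive control probes fell unequally on the knockdown arrays, by 1.48-fold to 3.07-fold. The part of such unequal dimming in the shift was not tested.

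To set the members against the other miRNAs, log2(total signal + 20) was brought to one scale by limma's scale normalization over the 567 mouse names, which divided the log2 values of the arrays by 0.988 to 1.02. The log2 change, knockdown minus control, was -1.67 (standard error 0.0958) for miR-221, with -1.59 and -1.75 in the same-numbered pairs. It was -0.69 (standard error 0.0958) for miR-222, with -0.66 and -0.73. The offset of 20 shrinks changes of dim miRNAs: with no offset and no scaling the values were -2.00 and -1.05. In the fit over all miRNAs both members were among the 111 of 130 called lower by limma with an adjusted p below 0.05 (85.4%), and 14 were called higher (10.8%). The paper's list of significantly changed miRNAs, from its own filter and fit, holds miR-221 as reduced, with a milder change than here. It does not hold miR-222, for a reason that the list does not give. Since the pair was chosen with this contrast known, nothing is read from its calls.

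miR-221 changed by nearly the median of the 130 miRNAs detected on every array, which was -1.70, whereas miR-222 lay 1.01 above it. Over the 214 detected on at least 1 array the median was -1.22, which left miR-221 at -0.45 and miR-222 at 0.53 relative to it. In the order of the 130 changes, 67 miRNAs had a more negative change than miR-221 and 62 a less negative one. For miR-222, 80.0% had a more negative change and 25 miRNAs a less negative one, which places it outside the middle range of changes, from -2.04 to -1.03 between the quartiles. The difference between the members was 0.98 on the log2 scale, with 0.93 in pair 1 and 1.03 in pair 2. On the arrays themselves, miR-221 stood at 1.60 and 1.59 times the median signal in control cells and at 1.75 and 1.66 times in knockdown cells. miR-222 stood at 0.322 and 0.297 times the median in control cells and at 0.655 and 0.614 times in knockdown cells. In order of brightness among the 130, miR-221 went from place 45 on both control arrays to 46 and 48. miR-222 moved up from 99 and 102 to 87 and 89. The order of changes depended on the offset: with no offset and no scaling, the median of the 130 was -2.20. Then 80 miRNAs had a more negative change than miR-221, and 103 a more negative one than miR-222.

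The members lie in different parts of the brightness range, and changes varied with brightness. The 130 miRNAs share arrays and are not independent. Across them control level and change were related with Pearson's r = -0.432 and Spearman's rho = -0.551 (n = 130). The control arrays entered both measures. The offset entered both too, and it shrinks changes of dim miRNAs, so part of this relation and of the bin medians may come from it. For example, miR-532-3p went from 71.6 in control to 5.03 in knockdown cells in mean signal, with a change of -1.74. The relation without the offset was not tested. With the 130 divided into 4 bins by control level, miR-222 lay in the dimmest bin, where the median change of 33 miRNAs was -0.69, which is the value of miR-222 itself. There 16 miRNAs had a more negative and 16 a less negative change than miR-222, and 12 had a positive one. miR-221 lay in the third bin from the dimmest, where the median change of 32 miRNAs was -1.92 and 25 had a more negative change than miR-221. Thus miR-222 was in the middle of the changes of its bin, and miR-221 was among the miRNAs of its bin that lost less signal. The bin of miR-222 was wide, with control levels from 4.66 to 7.16, and miR-222 lay near its upper edge, at 7.08. The miRNAs nearest to it in level were miR-140 and miR-155 just above and miR-425 and miR-101b just below. Their changes were -1.50, -1.03, -1.60 and -1.55, each more negative than that of miR-222. The bins also leave out miRNAs not detected on every array. Among these, X-linked miR-361 (130 to 17.4 in mean signal) and miR-652 (120 to 14.8) were near miR-222 in control signal. The dimmer X-linked miR-672 (10.3 to 45.0) was left out too. What this filter does to the bin medians, and what part brightness has in the difference between the members, were not tested.

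**Figure D3:**
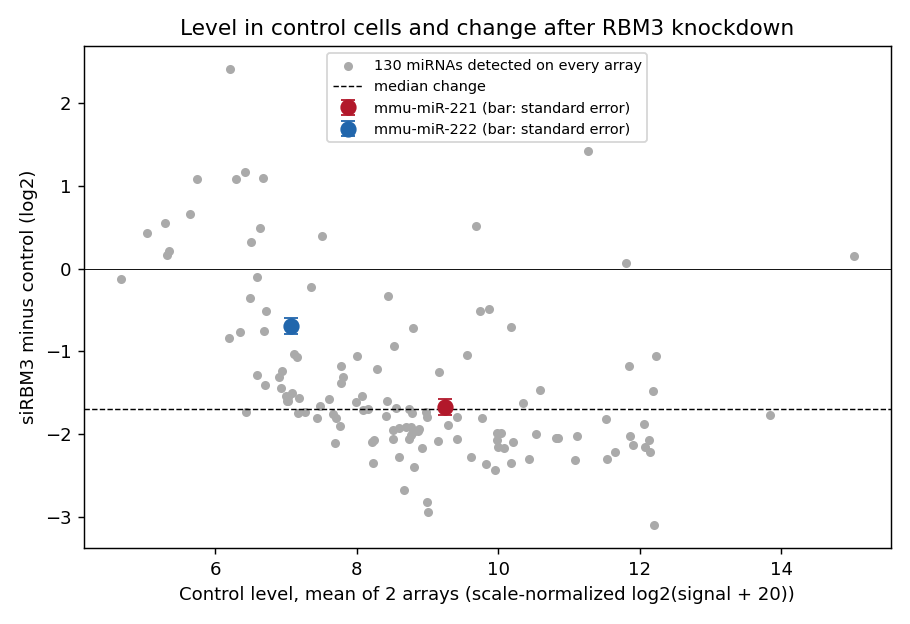
Log2 change, knockdown minus control, against the mean control level (scale-normalized log2 of signal plus 20) for the 130 miRNAs detected on every array, with bars for the standard error of the members and a dashed line at the median change. miR-221 sits on the median line, and miR-222 sits above it among the dim miRNAs, whose changes spread from below -1 to above 2.

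The miRNAs with a profile over the 4 arrays most like that of each member were found by the Euclidean distance of log2 values centred on their own mean. For miR-221 the nearest was miR-31, at a distance of 0.0456, followed by miR-30c (0.0464), miR-365 (0.0548), miR-30e (0.0671) and miR-362-3p (0.0674). miR-31 is known from human breast cancer as a suppressor of metastasis, and miR-362-3p comes from an intron of Clcn5 on the X chromosome. Mean signals of miR-31 were 383 in control and 90.6 in knockdown cells. The changes of these 5 lay between -1.71 and -1.61.

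For miR-222 the nearest was miR-181b (0.0905), followed by miR-322 (0.158), miR-186 (0.158), miR-320 (0.171) and miR-1 (0.190). miR-322 is the mouse counterpart of human miR-424 and is X-linked, and miR-1 is the classical miRNA of skeletal and cardiac muscle. These 5 were not all dim: miR-181b had 66.0 in control and 25.9 in knockdown cells, miR-322 had 456 and 232, and miR-1 had 1248 and 637. The profiles of the cluster partners were 0.982 apart, so that 99 other miRNAs were nearer to miR-221 than miR-222 was, and 47 were nearer to miR-222 than miR-221 was. With 4 arrays these distances rest mostly on the change between the groups.

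The remaining X-linked miRNAs show how the members compare with others of their chromosome. Of 567 mouse names, 546 (96.3%) matched a RefSeq locus and 80 had all their loci on X. Of the 80, 17 were detected on every array, the members included, and 52 on no array. Of the other 15 detected, 13 were lower and 1 was higher in knockdown cells by limma at an adjusted p under 0.05, beside shares of 85.4% and 10.8% over all 130, and their median change was -1.70, as over all 130. The lowest was miR-374, at -2.35 (302 to 36.2 in mean signal, adjusted p from limma 1.39e-49), and the highest miR-188-5p, at 0.39 (174 to 205, adjusted p from limma 8.89e-05). Among them 12 had a more negative change than miR-222 and 8 a more negative one than miR-221. These p-values rest on a variance pooled over all miRNAs by limma, whose prior was infinite, and not on replication beyond 2 arrays per group.

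The cell cycle is the setting in which the pair is best known, so other miRNAs that act on G1 were read beside it. Of 8 miRNAs known, mostly from human cells, to repress the Cdk inhibitors p21, p57 or p16, all 8 were detected on every array and 8 were lower by limma. Their changes ran from -2.44 for miR-93 to -1.92 for miR-17, with a median of -2.04. miR-93, which represses p21, had a mean signal of 1062 ± 82.5 (SD, n = 2) for control and 152.55 ± 3.66 for knockdown. Of 13 miRNAs known to repress D cyclins, Cdk4 or Cdk6, 12 were detected on every array and 12 of these were lower, with a median of -2.08. They ran from -2.35 for miR-15b, a regulator of cyclin D1, to -1.73 for miR-34b-5p, of the p53-responsive miR-34 family. Over all 130 miRNAs, 85.4% were lower, with a median change of -1.70. All 20 detected miRNAs of both lists had a more negative change than miR-221 and miR-222, but all 20 also lay in the brighter 2 of the 4 bins, whose median changes were -1.92 and -2.02, close to those of the lists.

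Scaling decides the sign given to the members. Centring each array on the positive control probes left miR-221 lower, at -0.77, and turned miR-222 to 0.25. Centring on the 75th percentile of the miRNAs detected on every array, which removes most of their common fall by construction, gave 0.23 and 1.25. A direction for either member is therefore relative to the reference chosen, and miR-222 had the higher value of the pair in each setting except scale normalization of log2 signals with no offset, where the members were at 2.58 for miR-221 and 2.49 for miR-222. Every version of scale normalization divides an array by a common factor on the log2 scale, and the versions differ in how far these factors lie apart: 0.988 to 1.02 as reported, 0.884 to 1.14 over the detected miRNAs alone, where the members were 0.62 apart, and 0.747 to 1.41 with no offset, where they were -0.082 apart. Unequal factors change a difference in log2 between a bright and a dim miRNA, so such differences are not fold changes in signal.

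**Figure D4:**
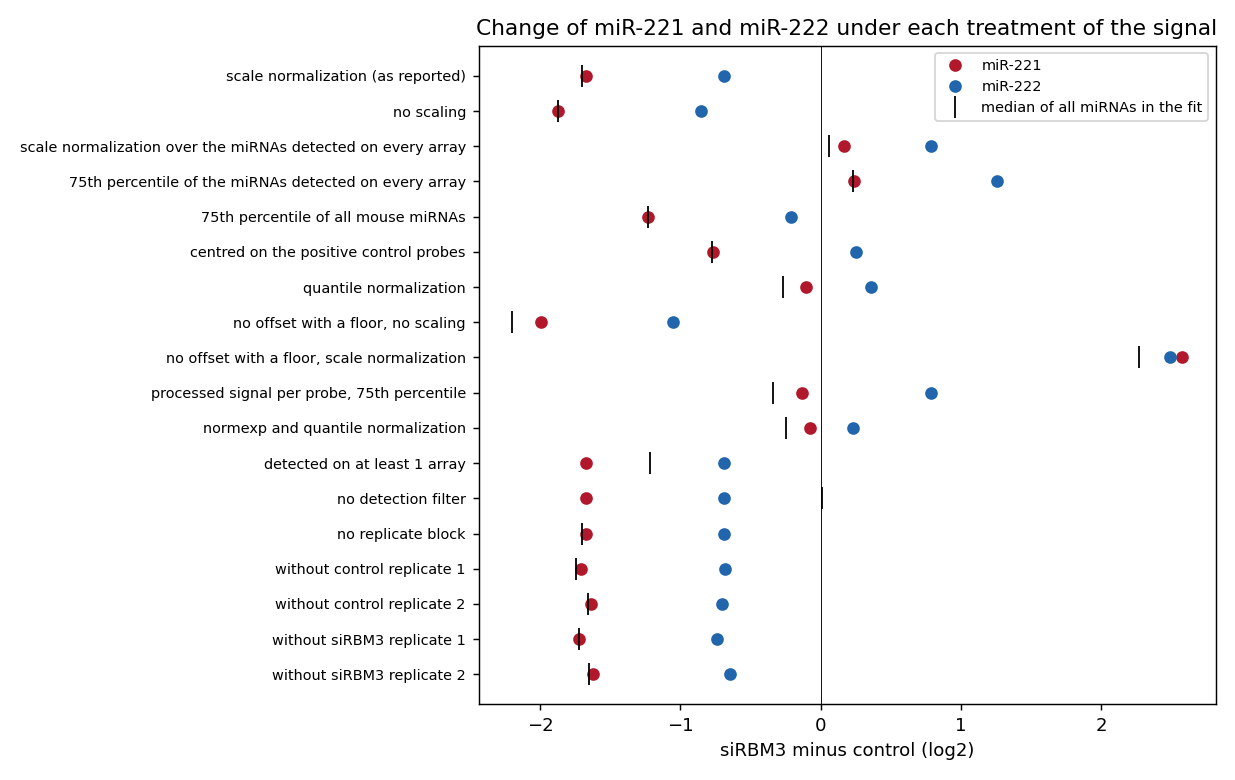
Log2 change, knockdown minus control, of miR-221 and miR-222 under each treatment of the signal, with a black tick for the median of the miRNAs in the fit. miR-222 lies to the right of miR-221 in each setting but scale normalization with no offset, and it lies on either side of 0 depending on the reference.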

How the data were processed

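Small RNA from 2 control and 2 siRBM3 samples was read on 1-colour Agilent mouse miRNA arrays of a single slide. The authors read the scans with Feature Extraction 10.1.1.1, which gives background-subtracted intensity per spot, its total for each miRNA and whether that was detected. In the deposited table each value is this total raised by 20 (linear intensity), with column medians of 23.4, 24.0, 22.1 and 21.9 and no scaling between arrays.

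Here log2(total signal + 20) was scale-normalized over the 567 mouse miRNAs; the methods speak of equal median absolute deviations, whereas limma's function, used here, equalized the medians of the uncentred log2 values and so differs from that wording. Then the 130 detected on every array were fitted with limma 3.58.1 in R 4.3.3 (lmFit, eBayes, replicate number as a block, since the methods allow for paired samples; Benjamini-Hochberg at 0.05). Members, lists, scaling and the naming rule (the members, the 5 nearest profiles of each and the extremes of each list) were chosen with earlier results of these data known. Alternatives were other scalings and offsets, signal per probe, normexp with an offset of 50 on median signals, other detection filters, no block and each array left out. Scripts were tested on simulated data. The number of arrays limits the precision.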

Additional observations from a re-analysis of the deposited data

How the results depend on the processing

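Signs depended on the reference, as the design has no miRNA known to be constant. In the order miR-221, miR-222, the log2 change was -1.87 and -0.85 with no scaling, -2.00 and -1.05 with no offset and a floor of 0.5, -1.23 and -0.21 with the 75th percentile of all mouse miRNAs, -0.77 and 0.25 with the positive control probes, -0.11 and 0.36 with quantile normalization, -0.073 and 0.23 with normexp and quantile normalization, -0.13 and 0.78 with the processed signal per probe, 0.17 and 0.79 with scale normalization over the detected miRNAs, 0.23 and 1.25 with their 75th percentile, and 2.58 and 2.49 with scale normalization and no offset.

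Relative to the median change of the miRNAs in the fit, 0.026 and 1.01 as reported, the members were at 0.11 and 0.73 with scale normalization over the detected miRNAs, 0.16 and 0.63 with quantile normalization, 0.20 and 1.15 with no offset, 0.30 and 0.22 with no offset and scale normalization, 0.21 and 1.13 with the processed signal, and 0.17 and 0.47 with normexp. Other filters change the miRNAs that set the median: with detection on at least 1 array they were at -0.45 and 0.53, and with no filter, where most names are dark, at -1.68 and -0.70.

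The difference of miR-222 from miR-221, 0.98 as reported, was 0.62 with scale normalization over the detected miRNAs, 0.47 with quantile normalization, 0.92 with the processed signal, 0.30 with normexp and -0.082 with scale normalization and no offset.

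Counts of lower and higher miRNAs, 111 and 14 as reported, were 37 and 56 with scale normalization over the detected miRNAs, 22 and 69 with their 75th percentile, 105 and 20 with that of all mouse miRNAs, 60 and 32 with quantile normalization, 2 and 118 with scale normalization and no offset, 94 and 30 with the positive control probes, 75 and 41 with the processed signal, 79 and 32 with normexp, 165 and 38 of 214 with detection on at least 1 array, and 176 and 52 of 567 with no filter. The cause of these shifts was not tested, beyond the references and filters themselves.

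Leaving out each array in turn, without the block, gave -1.72 to -1.62 for miR-221, -0.74 to -0.65 for miR-222 and 0.93 to 1.02 for their difference, with 110 to 111 lower and 14 to 17 higher. Deviations from the group mean were opposed, not shared, between arrays of the same number (correlation -0.387 over 130 miRNAs). No replicate block left both changes at -1.67 and -0.69 and the counts at 111 and 15, and the crossed pairing, chosen after seeing the data, gave 111 and 16.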
